A study of Mus musculus with 12 samples.

Results

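The regions described here are 2869 stretches of 500 bp that lie in an exon, in a 3' untranslated region (3' UTR) or at the annotated end of a transcript, more than 3000 bp from the nearest transcription start site (TSS) in the authors' annotation. They were chosen on chromosomes 1 to 19 from the 55386 regions of the authors' deposited table by distance and annotation alone, on mouse build mm10. No signal value entered the choice. They comprise 1066 exon regions, 858 3' UTR regions and 945 regions annotated TTS, the transcription termination site, called gene-end regions here. The signal is histone H3 acetylated at lysine 27 (H3K27ac), measured by chromatin immunoprecipitation with sequencing in cortical microglia sorted by flow cytometry after a Percoll gradient. At postnatal day 30, 4 h before collection, mice received interleukin-33 (IL-33) or vehicle by injection into a cerebral ventricle on 1 side. The H3K27ac libraries come from 4 female mice (numbers 3, 4, 7 and 8) and 4 male mice (numbers 1, 2, 5 and 6), 1 library per mouse. Genotype and strain are not stated in the labels. The labels give the sex of each mouse and not its treatment, so the values per library below are given by sex, and the IL-33 comparison is that of the authors' deposited table.

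H3K27ac is placed by acetyltransferases such as p300 and CBP and marks active enhancers and promoters. Enhancers are best known from introns and from the space between genes, but coding exons, last exons and the sequence just past a gene can also carry enhancers, often for a neighbouring gene. IL-33 is an alarmin that signals through its receptor ST2 and the adaptor MyD88 to NF-kB and the MAP kinases, and microglia carry this receptor.

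A few of these regions hold an annotated start of another transcript. Of the 2869 regions, 19 overlap a RefSeq promoter window, which runs from 250 bases before a start to 50 bases after it, and 15 of the 18 genes concerned are long noncoding RNA (lncRNA) genes. The starts that lie inside a region that was called with IL-33 or that held a mean of at least 100 tags are shown because they place a promoter inside an exon or gene end of another gene. The sequences are from RefSeq (GRCm38.p6), with 20 bases before the start in lower case and the first 10 transcribed bases in capitals. Gm52824 is a lncRNA gene whose start lies 111 bp from the centre of a region at the end of Coro1c (chr5:113841669-113841698, plus strand). LOC115490439, another lncRNA gene, starts 40 bp from the centre of an exon region of Gsg1 (chr6:135241356-135241385, plus strand). Nhej1, which encodes a factor of DNA end joining, starts 8 bp from the centre of a gene-end region of Slc23a3 (chr1:75125217-75125246, minus strand).
Gm52824: ttcactgtctggggggagggGGGGCGGGCG
LOC115490439: cgatataggcagtctgggctCCCAGTGACA
Nhej1: acccaagaccccgccttcctGAGTGTGTTG

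The Gm52824 region rose with IL-33 by 1.48 log2 units (SE 0.21, adjusted p = 5.95e-10), and the LOC115490439 region fell by 0.99 (SE 0.36, adjusted p = 0.0341) per the authors' deposited table. The Nhej1 region stood at -0.35 (SE 0.26, adjusted p = 0.396) per the authors' deposited table, and was not called. Of the 13 of these 19 regions with an adjusted p, 3 were called, where 10.2% of all regions rose and 7.99% fell, per the authors' deposited table. The 3 are the Gm52824 and LOC115490439 regions and an exon region of Fez2 at the promoter window of the lncRNA gene Gm32336 (-1.09, adjusted p = 0.00549), per the authors' deposited table. Their promoter windows were searched on both strands for the core letters bound by PU.1, the lineage factor of macrophages (GAGGAA), and by AP-1 (TGANTCA), and for an NF-kB core. Among all 32851 promoter windows of that length, 28.3% hold the PU.1 letters, 7.81% the AP-1 letters and 1.63% the NF-kB core. Inside the regions themselves the search gave a match to PU.1 at LOC115490439 (chr6:135241321-135241350, plus strand, capitals mark the match).
LOC115490439 PU.1 match: cgtcagtagcagGAGGAAgctgatgagttg

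Library depth set how finely a single region could be read. Female libraries held 2155209 to 4133042 tags and male libraries 5160915 to 10019606, and values are tags scaled by the authors to 10000000 per library. The median region of the 2869 held 3 to 6 reads in female and 6 to 11 reads in male libraries, and 17.6 to 27.3% of the regions had no read in a female library, against 4.84 to 9.34% in a male one. Promoters of all 8 microglial marker genes carried signal (median 253 tags), whereas 3 of 5 neuronal, 3 of 4 astrocyte, 2 of 3 T cell and 3 of 4 neutrophil or monocyte markers were at 0. Oligodendrocyte markers had a median of 4.33 tags (up to 37.9, at Mog), with summed levels of 26.6 to 116.0 tags in female and 36.9 to 77.6 in male libraries, and their part in the results was not tested. Of the endothelial markers Cldn5 was at 0 and Pecam1 held 64.0 tags. Marker levels count only listed regions within 1000 bp of a TSS, so a 0 can also mean that no region was listed there. Each mouse is a separate replicate, and libraries of 1 sex differed by more than counting noise in every pair (chi-square per degree of freedom 1.77 to 7.02).

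The regions sit close to genes, as their annotation requires, but often not to the TSS of the gene they lie in. Their median distance to the nearest TSS was 12318 bp, against 22367 bp over every region the authors compared. The transcript named by the annotation could be matched to a gene for 2859 of them, and in 52.0% that gene was also the one with the nearest TSS. The share was 57.5% for exon, 43.3% for 3' UTR and 53.8% for gene-end regions. Of the 1371 regions in which another gene had the nearest TSS, 742 (54.1%) lay upstream of that TSS. Such a region lies in 1 gene and upstream of another, and both genes are named below for most regions where they differ. Of the regions whose annotated gene is nearest, 83.8% had a region listed within 1000 bp of that gene's TSS. Of those whose annotated gene is not nearest, 82.9% had one at the annotated gene and 75.6% at the nearest gene.

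Exon regions lay at various positions in their transcripts. Their transcripts had a median of 14 exons, 257 of the 1066 regions lay in exon 2 or 3 and none in exon 1. In the last exon lay 258, of which 67 were also in exon 2 or 3, and 618 lay in neither. All 858 3' UTR regions lay in the last exon. The authors found 2086 of the 2869 regions (72.7%) in the peak sets of both treatments, 487 with IL-33 only and 296 with vehicle only, and 72.6% of all regions of the comparison were in both. Listing in a single peak set does not mean that signal is absent in the other treatment. A Coro1c gene-end region listed with IL-33 only (chr5:113842274-113842774) had group values of 7.48 for IL-33 and 7.89 for vehicle per the authors' deposited table. Of the 2869, 528 (18.4%) overlap another region and share reads with it.

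Median signal was lowest in gene-end regions with all regions counted, and equal in exon and gene-end regions once overlapping ones were left out. Exon regions had a median of 11.7, 14.5, 13.9 and 13.9 tags in female mice 3, 4, 7 and 8, and of 9.98, 11.5, 10.5 and 11.6 tags in male mice 1, 2, 5 and 6. The medians of 3' UTR regions averaged 14.3 ± 0.389 tags in female and 11.6 ± 0.234 in male libraries, and those of gene-end regions 11.1 ± 1.25 tags in female and 9.86 ± 0.375 in male libraries (SD, n = 4 each). Female medians were above every male median for exon and 3' UTR regions and overlapped with the male ones for gene-end regions. The closest exon medians were 11.74 tags in female mouse 3 and 11.63 in male mouse 6. Each library median falls on a step of whole reads, so close or equal medians and their SD are not finely resolved. Distal introns averaged 14.96 ± 1.22 tags in female and 12.4 ± 0.572 in male libraries (SD, n = 4 each), and no difference between annotations was tested. Of the 2869 regions, 254 (8.85%) had a mean of at least 100 tags, against 9.59% of all compared regions.

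**Figure D1:**
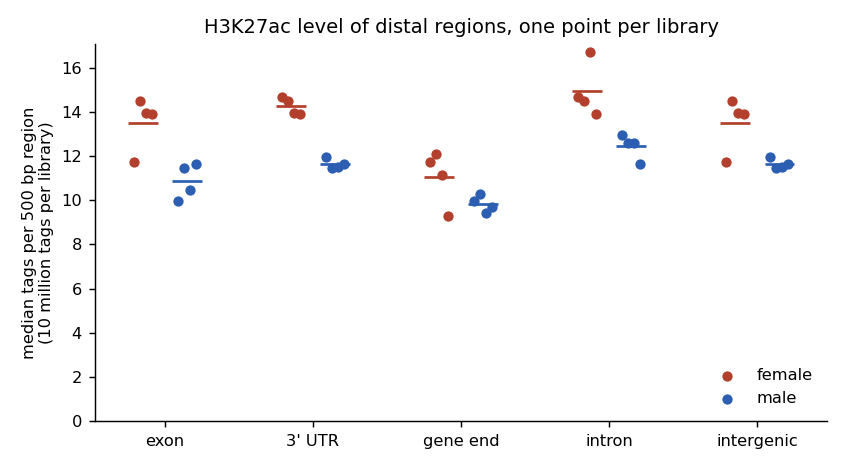
Median H3K27ac tags (scaled to 10000000 tags per library) of distal regions by annotation, with 1 point per library, female left of male and a line at the mean of 4 libraries. With overlapping regions kept, gene-end regions have medians of 9.28 to 12.1 tags in female and 9.44 to 10.3 in male libraries.

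The 5 strongest regions lay in Coro1c, Evi2a, Pik3r5, Hs1bp3 and Map3k9. A gene-end region of Coro1c, which encodes the actin-binding protein coronin 1C, held 381, 537, 557 and 538 tags in female mice 3, 4, 7 and 8 and 299, 262, 403 and 430 tags in male mice 1, 2, 5 and 6 (chr5:113842274-113842774). Its nearest TSS is that of Selplg, the P-selectin ligand gene that marks resting microglia, about 12 kb away. An exon 2 region of Evi2a held a mean of 406 tags, an exon 3 region of Pik3r5, the regulatory subunit p101 of PI3-kinase gamma, 398 tags, a gene-end region of Hs1bp3 348 tags and a 3' UTR region of the kinase gene Map3k9 336 tags over the 8 libraries. Of these, the Coro1c region fell by 0.40 (SE 0.14, adjusted p = 0.025), the Pik3r5 region rose with IL-33 by 1.44 (SE 0.18, adjusted p = 1.02e-13) and the Evi2a region rose by 0.66 (SE 0.13, adjusted p = 2.04e-05) per the authors' deposited table. The Pik3r5 region (chr11:68475158-68475658) had 431, 948, 226 and 311 tags in female mice 3, 4, 7 and 8 and 504, 439, 176 and 147 in male mice 1, 2, 5 and 6. Female and male ranges overlapped there, and the lowest values were those of male mice 5 and 6 and female mouse 7.

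The IL-33 comparison asked which of these regions gained or lost acetylation within 4 h. Rises and falls were equally many, 169 each, and the largest rises were larger than the largest falls. Of the 2003 regions with an adjusted p, 8.44% rose and 8.44% fell at an adjusted p under 0.05 per the authors' deposited table, where 10.2% of all 40352 regions with an adjusted p rose and 7.99% fell. The shares are thus near those of all regions, and the median log2 fold change was -0.07 against -0.01 over all regions per the authors' deposited table. Of the 55386 compared regions, 29910 lay in distal introns and 21251 in distal intergenic sequence of chromosomes 1 to 19. The shares over all regions therefore describe mostly distal regions. In such bulk libraries, fewer cells with the mark and less of it per cell cannot be told apart. For 866 regions the authors' deposited table gives no adjusted p, and these enter no count. The median log2 fold change was 1.49 among the risen and -1.17 among the fallen regions, and 44 rises and 9 falls reached 2 log2 units per the authors' deposited table. Deposited group values had the sign of the fold change in all 338 called regions of the authors' deposited table.

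Exon regions had more falls than rises, and gene-end regions more rises than falls. Of 743 exon regions with an adjusted p, 48 rose (6.46%) and 64 fell (8.61%), whereas of 633 gene-end regions 71 rose (11.2%) and 56 fell (8.85%) per the authors' deposited table. Among 627 3' UTR regions, 50 rose (7.97%) and 49 fell (7.81%) per the authors' deposited table. Distal introns had 9.55% rises and 7.85% falls, and intergenic regions 11.7% rises and 8.34% falls per the authors' deposited table. Whether these shares differ was not tested, since regions of a gene are not independent. Within exon regions, 17 rose and 14 fell of 186 tested in exons 2 and 3, 17 rose and 15 fell of 173 in last exons, and 23 rose and 40 fell of 423 in the others per the authors' deposited table. Regions found only in the IL-33 peak set had 59 rises and 8 falls of 274 tested, and those found only in the vehicle peak set 5 rises and 17 falls of 178 per the authors' deposited table, but peak sets and comparison rest on the same libraries.

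**Figure D2:**
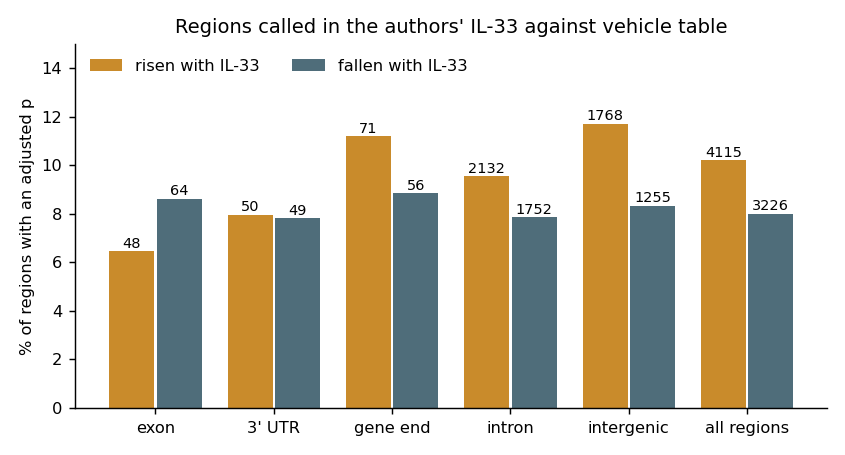
Share of regions with an adjusted p (vertical axis, percent) that rose or fell with IL-33 over vehicle at an adjusted p under 0.05 per the authors' deposited table, by annotation, with the number of called regions above each bar. Exon regions have 6.46% rises and 8.61% falls, gene-end regions 11.2% and 8.85%, and all regions 10.2% and 7.99%.

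The largest rises lay in Ppfia3, Itsn1, Acsl5, Vgf and Ehd1. The gene-end region of Ppfia3, a synaptic scaffold gene, 3.5 kb from the TSS of Hrc (chr7:45338564-45339064), held 52.8, 82.3, 2.79 and 0 tags in female mice 3, 4, 7 and 8 and 54.9, 34.4, 2.10 and 0 tags in male mice 1, 2, 5 and 6. The libraries of mice 3, 4, 1 and 2 were high and those of mice 7, 8, 5 and 6 at or near 0, within both sexes. It rose by 3.83 (SE 0.55, adjusted p = 4.44e-10), with group values of 4.79 for IL-33 and 0.56 for vehicle per the authors' deposited table.

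A 3' UTR region of Itsn1, which encodes the endocytic scaffold intersectin, held 29.3, 75.01, 0 and 9.28 tags in female mice 3, 4, 7 and 8 and 64.9, 35.5, 0 and 1.94 tags in male mice 1, 2, 5 and 6 (chr16:91870183-91870683). It rose by 3.59 (SE 0.56, adjusted p = 1.02e-08) per the authors' deposited table. An exon 28 region of the same gene, which ends just before it, rose by 2.55, and an exon region 82.8 kb from the nearest TSS by 1.67 per the authors' deposited table. All 7 regions in Itsn1 have Atp5o, an ATP synthase subunit gene, as the nearest TSS, 13.6 to 91.9 kb away, and 3 of the 5 with an adjusted p rose per the authors' deposited table.

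Exon 19 of Acsl5, an acyl-CoA synthetase gene, held a region 21.8 kb from the TSS of the palmitoyltransferase gene Zdhhc6 (chr19:55293957-55294457). Its tags were 70.4, 58.1, 0 and 0 in female mice 3, 4, 7 and 8 and 44.9, 52.7, 4.19 and 1.94 in male mice 1, 2, 5 and 6, so that female and male ranges overlapped. It rose by 3.57 (SE 0.53, adjusted p = 1.26e-09) per the authors' deposited table. The 3' UTR of Ehd1, a gene of endocytic recycling, held a region (chr19:6298458-6298958) with 141, 96.8, 2.79 and 4.64 tags in female mice 3, 4, 7 and 8 and 66.9, 77.9, 8.39 and 5.81 in male mice 1, 2, 5 and 6. Here too female and male ranges overlapped and both sexes had high and low libraries. It rose by 3.40 (SE 0.43, adjusted p = 9.18e-13) per the authors' deposited table.

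Other large rises lay in exons of Kctd19 (3.28, nearest gene Plekhg4), of the zinc finger gene Plagl2 (3.15) and of Map3k8 (2.45) per the authors' deposited table. Map3k8 encodes the kinase Tpl2, which links NF-kB1 p105 to ERK signalling. At gene ends, Vgf, a neuropeptide precursor gene, stood at 3.55, the serotonin receptor gene Htr5b at 3.31, the phosphatase gene Ppm1n at 3.07 and Pgap2 at 2.87 per the authors' deposited table. The Pgap2 region lies 11.2 kb from the nearest TSS. The adjusted p of these 7 regions ranged from 9.66e-13 at Kctd19 to 1.82e-05 at Pgap2 per the authors' deposited table. In the last exon of Srgap2, a pair of overlapping 3' UTR regions that share reads, 7.5 and 7.9 kb upstream of Ikbke, the gene of the kinase IKK epsilon, rose by 2.86 and 2.83 per the authors' deposited table. A region in exon 3 of Srgap2, 90.5 kb into the gene, fell by 0.79 (adjusted p = 0.0118) per the authors' deposited table.

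Some rises began from almost no vehicle signal. Of the 169 risen regions, 17 had a vehicle group value under 1, and of the 169 fallen regions 6 had an IL-33 group value under 1 per the authors' deposited table. Their fold changes and standard errors rest on few reads in that group.

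Of the large falls, the one with the smallest adjusted p was at the end of Ank, the gene of a pyrophosphate exporter (chr15:27595440-27595940). That region held 17.6, 53.2, 273 and 278 tags in female mice 3, 4, 7 and 8 and 25.95, 22.9, 211 and 161 tags in male mice 1, 2, 5 and 6. Mice 7, 8, 5 and 6 had the high values and mice 3, 4, 1 and 2 the low ones, and female and male ranges overlapped. It fell by 2.83 (SE 0.25, adjusted p = 2.54e-25), with group values of 3.87 for IL-33 and 6.81 for vehicle per the authors' deposited table. The last exon of the unnamed gene 1700021F07Rik (chr2:173528016-173528516) held 5.87, 21.8, 139 and 176 tags in female mice 3, 4, 7 and 8 and 4.99, 14.9, 71.3 and 79.4 in male mice 1, 2, 5 and 6. It fell by 2.95 (SE 0.37, adjusted p = 5.85e-13), and the overlapping gene-end region fell by 1.93 (SE 0.40) per the authors' deposited table.

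Exon regions also fell in Tmem87a, a Golgi membrane protein gene whose neighbour Vps39 encodes a subunit of the lysosomal tethering complex HOPS (-2.35), and in Emc3, a gene of the membrane protein insertase of the endoplasmic reticulum (-2.12), per the authors' deposited table. Others were in Dpysl5 (-2.18, nearest gene Mapre3) and in Plxnb1, a semaphorin receptor gene (-2.17), per the authors' deposited table. Falls in 3' UTRs were at Rassf4 (-2.16, nearest gene Zfp422), the N-terminal acetyltransferase gene Naa40 (-2.16, nearest gene Cox8a), Efr3a (-1.89) and the muscle fusion gene Mymk (-1.81) per the authors' deposited table. At gene ends the Arf GTPase activator gene Smap1 stood at -2.31, Bean1 at -1.99 (nearest gene Tk2, the mitochondrial thymidine kinase) and Cdrt4 at -1.97 per the authors' deposited table. The highest adjusted p among these falls was 0.0218, at Efr3a, per the authors' deposited table.

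**Figure D3:**
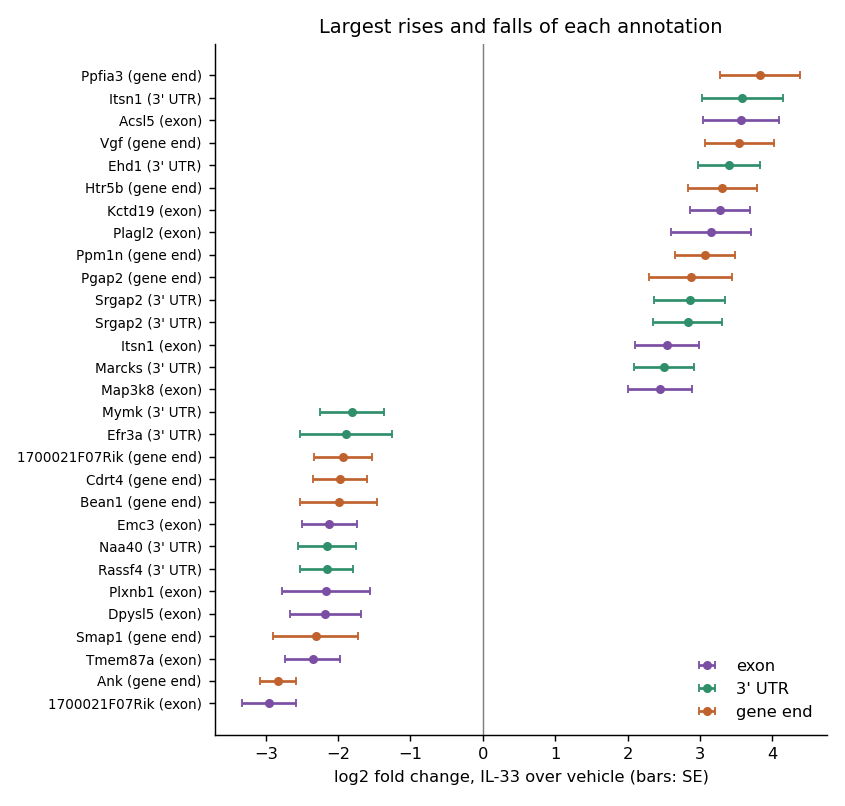
Log2 fold change of IL-33 over vehicle (horizontal axis, bars are SE) per the authors' deposited table for the named largest rises and falls of exon, 3' UTR and gene-end regions, named by the annotated gene. Rises range from 2.45 at Map3k8 to 3.83 at Ppfia3 and falls from -1.81 at Mymk to -2.95 at 1700021F07Rik.

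Several gene ends changed over kilobases rather than at a single region. Of 1356 annotated genes with a tested region, 124 had a rise and 137 a fall per the authors' deposited table. At least 2 called regions were found in 59 genes, of which 30 had only rises, 25 only falls and 4 both (Fbrsl1, Coro1c, Srgap2 and Smurf2). Some of these spans were short, such as 806 bp at Kat6a and 816 bp at Htr5b. The same gene counts were not made over all regions, so they are not read as a trait of these regions. Marcks, which encodes an actin-binding substrate of protein kinase C, had 6 of 6 regions risen over 3392 bp of its last exon and end (chr10:37132514-37135906). From the gene's end inward, these rose by 1.84, 2.51, 2.24, 1.81, 1.41 and 0.90 per the authors' deposited table, so the smallest rise was nearest the TSS. Regions inward in the last exon also had higher vehicle values, 1.44 at the end and 4.78 at the region nearest the TSS per the authors' deposited table. The region with the largest rise (chr10:37133485-37133985) held 88.0, 55.7, 27.9 and 4.64 tags in female mice 3, 4, 7 and 8 and 87.8, 71.0, 6.29 and 7.75 tags in male mice 1, 2, 5 and 6. Female and male ranges overlapped, with mice 3, 4, 1 and 2 above the others.

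The end of Fam53b moved the other way. All 5 of its regions fell, with log2 fold changes of -1.24, -1.14, -0.80, -0.80 and -1.23 over 3042 bp (chr7:132711552-132714594), 62.6 to 65.1 kb from its TSS, per the authors' deposited table. Besides Itsn1, 3 rises and no fall were also found at Ago1, the Argonaute 1 gene (1.14 to 1.67, nearest gene Ago3), Fndc7 (1.39 to 2.29, nearest gene Stxbp3), Sh2b2 (2.09 to 2.57, nearest gene Prkrip1), Mpeg1, the perforin-2 gene of macrophages (0.68 to 1.62), Bcl9l (1.0 to 1.46) and Vps13d (1.48 to 2.0, nearest gene Dhrs3), per the authors' deposited table. The genes with 3 falls and no rise were the activin receptor gene Acvr2b (-1.61 to -1.34, nearest gene Exog), the kinase gene Camkk2 (-1.47 to -0.71, nearest gene P2rx4, a purinergic receptor gene), Nisch, described below, and Ppp1r9a (-1.14 to -0.71, nearest gene Pon1) per the authors' deposited table. Ago1, Bcl9l, Acvr2b, Camkk2 and Ppp1r9a each had 1 further tested region that was not called, at -0.01 for Ago1, -0.30 for Acvr2b and -0.69 for Camkk2, per the authors' deposited table. These genes, including Fam53b, were picked after their values were seen, and overlapping regions among them share reads.

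Opposite calls lay within 1224 bp at the end of Coro1c. From outside the gene inward, its gene-end regions at 0, 268 and 724 bp stood at 1.48 (SE 0.21), 0.45 (SE 0.16, adjusted p = 0.033) and -0.40 (SE 0.14, adjusted p = 0.025), and its 3' UTR region at 1492 bp at -0.18 (adjusted p = 0.592) per the authors' deposited table. The first of these, which holds the Gm52824 start printed above, had 249, 484, 80.8 and 125 tags in female mice 3, 4, 7 and 8 and 234, 202, 90.2 and 96.9 tags in male mice 1, 2, 5 and 6. Female and male ranges overlapped there. An intergenic region 1181 bp outside the first fell by 0.82 (SE 0.24, adjusted p = 0.00743) per the authors' deposited table. The middle gene-end region overlaps each of the other 2 and shares reads with them, whereas the first and the last do not overlap. The 2 smaller changes are not past an adjusted p of 0.01 per the authors' deposited table.

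**Figure D4:**
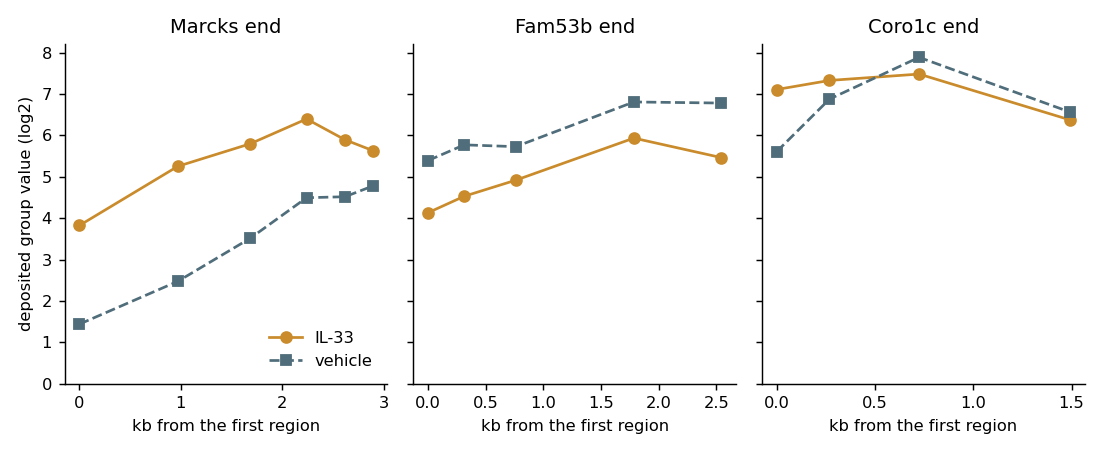
Deposited log2 group values (vertical axis) for IL-33 and vehicle in every exon, 3' UTR or gene-end region of Marcks, Fam53b and Coro1c, by distance in kb from the first region of each gene. IL-33 lies above vehicle at all 6 Marcks regions and below it at all 5 Fam53b regions, and the lines cross at Coro1c (7.11 for IL-33 and 5.61 for vehicle in its first region, 7.48 for IL-33 and 7.89 for vehicle in the last of its gene-end regions).

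Smurf2, a ubiquitin ligase gene, also had opposite calls, with a gene-end region at 0.74 (SE 0.27, adjusted p = 0.0336) and a 3' UTR region at -1.38 (SE 0.45, adjusted p = 0.0158), neither past an adjusted p of 0.01, per the authors' deposited table. Most other called neighbours had the same sign. Of 160 pairs of overlapping regions, 33 had both regions called, 32 of them with the same sign, per the authors' deposited table. Overlapping regions share reads, so their agreement in sign is partly built in. Of 526 pairs that did not overlap and started within 2000 bp, 65 had both called, 63 of them with the same sign, per the authors' deposited table. The 3 opposite pairs lie at Coro1c and Smurf2. Of the risen regions, 106 had a nearest gene with another called region outside the 2869, and for 89 of them (84.0%) all such regions also rose per the authors' deposited table. Among the fallen, 89 had such a region and for 69 (77.5%) all of them fell per the authors' deposited table. Within 10000 bp the agreement in sign was 115 of 121 for rises and 81 of 87 for falls per the authors' deposited table. The share of all regions whose neighbours have the same sign was not computed.

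The lists of inflammatory genes are set beside all regions, of which 10.2% rose and 7.99% fell per the authors' deposited table. All gene lists here and below were chosen with earlier results of these data known. Their shares describe the regions and are not independent evidence. Of 12 tested regions whose nearest gene is an NF-kB target or feedback gene, 2 rose (16.7%) and 0 fell, with a median of 0.50 against -0.01 over all regions, per the authors' deposited table. Nfkbia, which encodes the inhibitor IkB-alpha, rose by 0.58 (SE 0.19, adjusted p = 0.0161) at its gene end, and Nfkbiz, the gene of the nuclear regulator IkB-zeta, by 2.33 (SE 0.67, adjusted p = 0.00492) in its last exon per the authors' deposited table. The Nfkbia region held 191, 247, 162 and 195 tags in female mice 3, 4, 7 and 8 and 238, 204, 144 and 107 in male mice 1, 2, 5 and 6, whereas the Nfkbiz region held a mean of 6.43 tags. A region at the end of Bcl2l1, the gene of the survival factor Bcl-xL, rose by 1.19 (SE 0.34), with Cox4i2 as the nearest gene, per the authors' deposited table.

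Of 13 tested regions of AP-1 and immediate early genes, 4 rose (30.8%) and 0 fell, with a median of 0.26 (0.07 over 15 regions with annotated genes counted too), per the authors' deposited table. These lay in the last exon of Maff, a small Maf factor gene (1.37, adjusted p = 0.0366), at the end of Ier5 (1.39, adjusted p = 0.0487, or 0.0656 when adjusted over every region of the table), in the 3' UTR of Batf3 (1.39, adjusted p = 0.0145) and at the end of Prdx2, 3.1 kb from the TSS of Junb (1.78, adjusted p = 0.000465), per the authors' deposited table. All 4 reached an adjusted p under 0.05, and of them only Junb reached one under 0.01, per the authors' deposited table.

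Cytokine genes had 4 rises (66.7%, against 10.2% of all regions) and 0 falls among 6 tested regions, with a median of 1.59, per the authors' deposited table. Of these rises, 2 are overlapping regions near Il10 that share reads. The end of Zmynd15, 6.5 kb from the TSS of the chemokine gene Cxcl16, rose by 2.21 (SE 0.45, adjusted p = 3.02e-05) per the authors' deposited table. It had 20.5, 155, 5.57 and 9.28 tags in female mice 3, 4, 7 and 8 and 72.9, 50.4, 15.7 and 13.6 in male mice 1, 2, 5 and 6, so that the value of female mouse 4 stands apart and the ranges overlap. The end of Il12b, the gene of a subunit shared by IL-12 and IL-23, rose by 2.0 (SE 0.49), and overlapping regions at the end of the kinase gene Mapkapk2, 34.0 and 33.5 kb from Il10, by 1.91 and 1.27 per the authors' deposited table. With the annotated gene counted too, which was decided after seeing the data, 6 of 13 regions rose, among them a gene-end region of Il1b (2.0, SE 0.63, adjusted p = 0.012), per the authors' deposited table.

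STAT3 and cytokine feedback genes had 2 rises (40%, against 10.2% of all regions) and 0 falls among 5 tested regions per the authors' deposited table. The end of Socs3, a feedback inhibitor gene of cytokine receptors, rose by 1.99 (SE 0.52, adjusted p = 0.00157), and the 3' UTR of the oncostatin M gene Osm by 1.16 (SE 0.31, adjusted p = 0.00233), per the authors' deposited table. The end of Il10ra, the IL-10 receptor gene, whose nearest TSS is that of Mir7086, rose by 1.71 (SE 0.22, adjusted p = 2.72e-12) per the authors' deposited table. Its region held 264, 300.02, 53.0 and 92.8 tags in female mice 3, 4, 7 and 8 and 210, 205, 54.5 and 89.1 in male mice 1, 2, 5 and 6, with overlapping ranges.

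Near genes of resting microglia the shares were close to those of all regions (10.2% risen, 7.99% fallen). Of 52 tested regions near homeostatic genes, 4 rose and 4 fell, each 7.69%, with a median of -0.02 (0.07 over 66 regions with annotated genes counted too) per the authors' deposited table. The last exon of Cx3cr1, the fractalkine receptor gene, rose at an exon region by 0.98 (SE 0.24, adjusted p = 0.000902) and at a 3' UTR region by 0.91 (SE 0.28, adjusted p = 0.0115) per the authors' deposited table. That exon region held 179, 237, 103 and 102 tags in female mice 3, 4, 7 and 8 and 118, 111, 70.3 and 46.5 in male mice 1, 2, 5 and 6, with overlapping ranges. The other rises and 1 of the falls are the Coro1c regions near Selplg described above. Falls lay at the end of Golm1 (-0.74, adjusted p = 0.0489, or 0.0659 when adjusted over every region), at the end of Col15a1, 39.1 kb from the TGF-beta receptor gene Tgfbr1 (-0.66, adjusted p = 0.0013), and at the end of Maml1, 16.9 kb from the leukotriene synthase gene Ltc4s (-0.92, adjusted p = 0.033), per the authors' deposited table.

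The genes with the most regions included 6430706D22Rik with 11, of 1.82 to 4.54 tags and none with an adjusted p, Ncf1 with 8, Gm21057 with 7 and Atp5o with the 7 in Itsn1 described above. No region near Ncf1 or Gm21057 was called, among 5 tested for each, per the authors' deposited table.

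Phagocytosis and complement genes had 1 rise (9.09%, against 10.2% of all regions) and 4 falls (36.4%, against 7.99%) among 11 tested regions, with a median of -0.41 that was 0.01 over 13 regions with annotated genes counted too, per the authors' deposited table. Of the falls, 3 are regions of the single gene end of Nisch, some of which overlap, 14.5 to 15.4 kb from Stab1, a scavenger receptor gene (-0.91, -1.51 and -0.98), per the authors' deposited table. The region with the largest of these falls (chr14:31183509-31184009) held 76.3, 70.2, 248 and 232 tags in female mice 3, 4, 7 and 8 and 50.9, 65.3, 152 and 161 in male mice 1, 2, 5 and 6, and the ranges overlapped. The 3' UTR of Fcgr1, the high-affinity IgG receptor gene, fell by 1.48 (SE 0.32, adjusted p = 0.000117), and the end of Fcgr3, a low-affinity IgG receptor gene, rose by 1.03 (SE 0.38, adjusted p = 0.0412, or 0.0557 when adjusted over every region) per the authors' deposited table.

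No region near a pattern recognition receptor gene, a lysosomal gene or a chromatin regulator gene was called, among 8 tested for each list. Their medians were -0.05, 0.06 and -0.01, per the authors' deposited table. Of all regions 10.2% rose and 7.99% fell, and a difference from these shares was not tested at 8 regions per list. Exon 16 of Kat6a, a histone acetyltransferase gene, held a pair of overlapping regions that fell by 1.57 and 1.32 per the authors' deposited table, but their nearest TSS is that of Ank1. Of 9 tested regions near RNA processing genes 2 fell (22.2%, against 7.99% of all regions), both with Zfp36l2, the gene of an mRNA decay factor, as the nearest gene. They lay at the end of Zfp36l2 (-0.83, SE 0.24, adjusted p = 0.00512) and in exon 30 of its neighbour Thada (-0.53, SE 0.18, adjusted p = 0.0233), per the authors' deposited table.

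The distance bound of 3000 bp has regions close on either side, and at Ppm1n it separates neighbouring regions. Just inside it lay a 3' UTR region of the transcription factor gene Maf (3016 bp, -0.86), a gene-end region of Spata13 (3011 bp, -0.51) and an exon region of Cfap74 (3005 bp, 1.33) per the authors' deposited table. Just outside lay 3' UTR regions of Ppm1n (2998 bp), Pgap3 (2993 bp) and Stimate (2992 bp), with mean levels of 35.9, 1.37 and 23.5 tags and no IL-33 value. The Ppm1n region outside the bound is beside the gene-end region that is among the largest rises.

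Female and male libraries were compared over the 1564 regions with a mean of at least 10 tags. Called lower in female were 2 regions (0.128%) and called higher 2 (0.128%), where over all 53348 tested regions 1.87% were lower and 0.15% higher (limma, adjusted p under 0.05). Those 53348 regions had no limit on chromosome or distance, so they included promoters, and were not restricted to the regions of the IL-33 comparison. The spread within a sex holds whatever IL-33 did in these mice. Without adjustment, 8 of the 1564 regions were lower and 139 higher at p under 0.05 (limma). The unadjusted share over all tested regions was not computed, so no excess particular to these regions can be read from these counts. The headers give female and male libraries different dates and index types, and the female libraries were shallower, so sex, batch and depth cannot be told apart, and no batch holds both sexes. The median female minus male difference was 0.31 log2 units over the 1564 regions and 0.22 over all tested regions, and the latter was -0.09 after rescaling by the trimmed mean of M values (TMM), a shift that is as large as many single differences.

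Both lower regions lay at the end of Dda1, which encodes a subunit of the DDB1 ubiquitin ligase complexes, and overlap (chr8:71476285-71476785 and chr8:71476568-71477068). The first held 47.0, 0, 0 and 4.64 tags in female mice 3, 4, 7 and 8 and 134, 148, 158 and 122 tags in male mice 1, 2, 5 and 6, or 17 reads in female and 477 in male libraries. The second held 29.3, 7.26, 11.2 and 13.9 tags in female mice 3, 4, 7 and 8 and 136, 112, 155 and 110 tags in male mice 1, 2, 5 and 6. Female and male values did not overlap in either region. The differences were -5.12 (SE 0.98, limma adjusted p = 0.015) and -3.13 (SE 0.41, limma adjusted p = 0.00156) on the log2(tags + 1) scale. The second was called under all 17 alternatives (adjusted p 3.74e-11 to 0.0167) and the first under 11 of 17 (0.000307 to 0.188), and without male mouse 1, 2, 5 or 6 the first had a limma adjusted p of 0.0521, 0.0574, 0.0662 and 0.0591. With IL-33 the Dda1 regions stood at 0.06 and -0.03 per the authors' deposited table, and were not called.

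Higher in female were a 3' UTR region of Havcr2, the gene of the inhibitory receptor TIM-3 (chr11:46479234-46479734), and an exon region of Herc2, a ubiquitin ligase gene (chr7:56132251-56132751). The Havcr2 region held 179, 208, 212 and 204 tags in female mice 3, 4, 7 and 8 and 105, 109, 93.3 and 93.0 tags in male mice 1, 2, 5 and 6, a difference of 1.0 (SE 0.21, limma adjusted p = 0.026). The Herc2 region held 238, 240, 284 and 255 tags in female mice 3, 4, 7 and 8 and 94.8, 117, 158 and 128 tags in male mice 1, 2, 5 and 6, a difference of 1.04 (SE 0.22, limma adjusted p = 0.0267). Female values were above all male values in both regions. Neither call held after TMM rescaling, where the differences were 0.68 (limma adjusted p = 0.0991) and 0.72 (limma adjusted p = 0.129), and their adjusted p over 17 alternatives ran from 0.0143 to 0.117 and from 0.0208 to 0.129. With TMM rescaling 4 regions were lower and 0 higher in female by limma. Havcr2 stood at 0.05 and Herc2 at -0.26 with IL-33 per the authors' deposited table, and were not called.

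**Figure D5:**
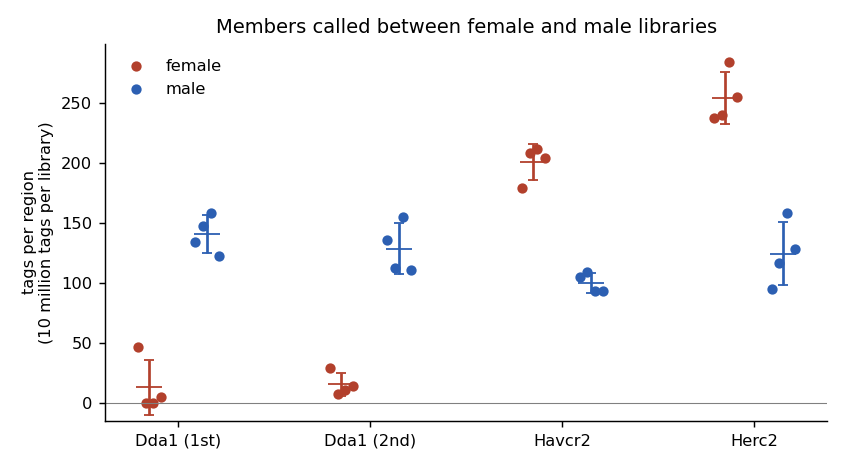
H3K27ac tags (scaled to 10000000 tags per library) in the 4 regions called between female and male libraries, with 1 point per library, female left of male, and mean ± SD of 4 libraries. The Dda1 regions hold 12.9 ± 22.8 and 15.4 ± 9.68 tags in female libraries against 140 ± 15.9 and 128 ± 21.2 in male ones, and Havcr2 and Herc2 are higher in female libraries on the deposited scale, a call lost after TMM rescaling.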

How the data were processed

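H3K27ac tags were given for 8 libraries, 4 female and 4 male, and 4 male input libraries are not analysed here. Bowtie2 and HOMER with build mm10 (GRCm38) are named in the submitters' processing notes, with no versions. Per the file headers, the signal is a tag count per 500 bp region that the authors scaled to 10000000 tags per library. The header totals returned whole reads for 100% of values within 0.01 of a read. The authors' deposited table gives a log2 fold change of IL-33 over vehicle, log2 group values, p-values, adjusted p-values, and a mean level, SE and test statistic (scores). Its tool and the mice in each group are not stated in the labels or headers. Its distance to the TSS is another deposited value, in bp.

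The rule for the 2869 regions was applied to both deposited tables joined by region. Members and the 10 gene lists were chosen with earlier results of these data known. Calls use an adjusted p under 0.05. Named regions are, per annotation, the 5 largest rises and falls, called regions of the gene lists, the 5 strongest, the 5 genes with the most regions, regions called between sexes, genes with both a rise and a fall, and those nearest the distance bound. List genes were matched to the nearest gene, and additionally to the annotated gene after the data were seen. Genes described as runs, such as Fam53b, were picked after their values were seen. Sexes were compared with limma 3.58.1 (R 4.3.3), two-sided, on log2(tags + 1) over 53348 regions with a mean of at least 10 tags, with Benjamini-Hochberg adjustment. A fold on that scale understates the change of low regions. edgeR 4.0.16 and DESeq2 1.42.0 on recovered reads were alternatives, with other pseudocounts, filters, scalings and thresholds, and each library left out. On simulated female and male data over 53348 regions, limma recovered 9% of 2-fold and 75% of 4-fold changes, with 0 false calls. The simulated counts had the same spread for all regions and no IL-33 or batch effect. These rates therefore do not carry over to the real libraries. Sequences, gene names and promoter windows come from RefSeq tables (GRCm38.p6), and Python 3.11.15 with pandas 2.3.3 joined the tables. Some regions that these rules name are not reported here.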

Additional observations from a re-analysis of the deposited data

Results flagged for a closer look

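In 4 of 180 groups of 4 libraries tested, 1 library stood far from the others. The bound used gives about 1 in 20 by chance when the 4 libraries are drawn alike. A sex group can hold mice of both treatments, and many groups were tested at regions named for their IL-33 change. The number flagged therefore cannot be set against that rate. The gap to the nearest library is given as a share of the group's range. At the Srgap2 3' UTR region near Ikbke, female mouse 4 held 116 tags against 4.64 to 20.5 in the other female mice (0.857). At the Zmynd15 end near Cxcl16, female mouse 4 held 155 tags against 5.57 to 20.5 (0.900). At the Coro1c end near Selplg, female mouse 3 held 381 tags against 537 to 557 (0.885). At the first Dda1 region, female mouse 3 held 47.0 tags against 0 to 4.64 (0.901), which is still below the lowest male value of 122.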

How the results depend on the processing

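Of the 169 risen and 169 fallen regions, 118 and 95 were past an adjusted p of 0.01 in the authors' deposited table. Over 10000 bp from a TSS there were 88 rises and 100 falls, 105 rises and 114 falls with overlapping regions left out, and in exons, 3' UTRs and gene ends alone 48, 50 and 71 rises and 64, 49 and 56 falls, all smaller by construction. Of 83 named regions, 66 had the same call at 0.01, 79 with p-values adjusted over every region (lost at Ier5, Golm1, Fcgr3 and an exon of Sall1) and 83 at 0.1. Counting annotated genes gave 2 fallen chromatin regions (Kat6a) in place of 0.

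Lower in female were 4 regions with a pseudocount of 5, 10 without a filter, 4 with quantile normalisation, 4 with TMM, 5 with DESeq2 and 1 at an adjusted p under 0.01, and 1 to 5 with 1 library left out. Higher were 5 at a mean of at least 30 tags, 4 without a filter, 0 with quantile normalisation, TMM, edgeR and an adjusted p under 0.01, and 0 to 6 with 1 library left out (6 without female mouse 3, 0 without female mouse 7 or 8 or male mouse 1, 2 or 6, 1 without male mouse 5). The cause was not tested. Median levels without overlapping regions were 9.73 tags in female and 9.06 in male libraries for exon regions, 12.2 and 9.32 for 3' UTRs, and 9.73 and 9.06 for gene ends. The IL-33 fold changes of the named regions are single deposited values, so no threshold could change their sign. The 4 regions called between sexes kept their sign under the alternatives tried. The median female minus male difference over all tested regions, 0.22, was -0.09 with TMM and -0.09 without a filter. The medians of the phagocytosis and homeostatic lists changed sign with annotated genes counted. At 3 to 6 reads per median region in female libraries, small differences are not detectable. No paired analysis was possible because female and male mice share no number in the labels.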
